A study of Drosophila melanogaster with 3 samples.

Results

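Intervals in which the tagged protein gave more than 1 summit were 480 of the 8135 intervals in the final peak set for Zif (CG10267) in Drosophila melanogaster embryos (5.9%). They held 975 summits, 11.3% of all summits in the set. An interval was a member where the same chromosome, start and end stood on more than 1 line of the authors' optimal set, which keeps peaks that rank alike in replicates by the irreproducible discovery rate (IDR). The members were thus chosen by measured values, namely the summits called and the pooled signal that admitted them to the IDR set; the remaining 7655 intervals and summits were single. Of the members, 467 had 2 summits, 11 had 3 and 2 had 4, and together they covered 346.4 kb. The data were ChIP-seq peak lists of 3 biological replicates of whole mixed-sex embryos aged 0 to 24 h, which formed 1 group: a transgenic line stably expressing Zif with GFP at its C-terminus, precipitated with an anti-GFP antibody. All replicates carried the transgene, and no other genotype or treatment was part of the design. Whole embryos mix all cell types and stages of that window, so an interval with several summits need not have had all of them occupied in the same cells. Per the labels, chromatin was sheared to fragments of 200 to 800 bp.

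Zif carries C2H2 zinc fingers and a zinc finger-associated domain (ZAD), the mark of a family that has expanded in insects and includes promoter-binding and insulator factors. It is known from larval neuroblasts, the neural stem cells of the fly, where it is needed for asymmetric division and represses aPKC, the kinase of the apical polarity complex. In ChIP-seq, fragments from 1 bound site spread around it, a summit is the point of highest enrichment, and an interval with several summits is a broader enriched stretch in which the caller placed more than 1 such point. In the compact fly genome many promoters face a neighbour on the opposite strand over a short gap, so 1 enriched stretch can cover the transcription start sites (TSSs) of several genes.

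The sequences under the summits of 6 members are examples of the short words counted below, at the strongest summit and at its weaker neighbour. Each window spans 50 bases on either side of a summit in the RefSeq dm6 sequence and is read 5′ to 3′ on the forward strand; the windows touch no annotated exon. Capitals mark CAACACTG or its reverse complement CAGTGTTG, the DNA replication-related element (DRE) TATCGATA, the Motif 1 core GGTCACAC, the E-box CAGCTG and the GAGA run GAGAGAG. The first 4 members have summits about 200 bp apart and the last 2 have summits far apart.
crp and pkaap, strongest summit, chr2L:16287821-16287921: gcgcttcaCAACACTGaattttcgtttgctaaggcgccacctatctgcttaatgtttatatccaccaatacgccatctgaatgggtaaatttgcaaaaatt
crp and pkaap, weaker summit, chr2L:16288021-16288121: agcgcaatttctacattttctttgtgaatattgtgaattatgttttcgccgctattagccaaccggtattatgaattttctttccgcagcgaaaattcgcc
Mo25, strongest summit, chr3L:16615474-16615574: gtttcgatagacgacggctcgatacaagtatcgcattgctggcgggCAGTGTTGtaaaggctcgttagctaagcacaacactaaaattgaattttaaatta
Mo25, weaker summit, chr3L:16615696-16615796: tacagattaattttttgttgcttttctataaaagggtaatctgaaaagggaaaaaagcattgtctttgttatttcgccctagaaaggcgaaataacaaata
RpS3A, strongest summit, chr4:67243-67343: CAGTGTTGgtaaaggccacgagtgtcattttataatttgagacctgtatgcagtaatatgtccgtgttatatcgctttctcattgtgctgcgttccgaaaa
RpS3A, weaker summit, chr4:67452-67552: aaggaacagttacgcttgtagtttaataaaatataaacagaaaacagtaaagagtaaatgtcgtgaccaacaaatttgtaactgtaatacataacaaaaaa
PIG-T, strongest summit, chrX:8407267-8407367: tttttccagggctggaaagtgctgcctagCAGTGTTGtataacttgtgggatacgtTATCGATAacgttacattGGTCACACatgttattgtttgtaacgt
PIG-T, weaker summit, chrX:8407494-8407594: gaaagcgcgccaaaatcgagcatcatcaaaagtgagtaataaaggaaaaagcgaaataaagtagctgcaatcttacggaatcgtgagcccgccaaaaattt
spdi, strongest summit, chrX:617594-617694: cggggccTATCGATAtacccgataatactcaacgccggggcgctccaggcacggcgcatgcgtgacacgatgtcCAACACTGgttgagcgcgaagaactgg
spdi, weaker summit, chrX:616923-617023: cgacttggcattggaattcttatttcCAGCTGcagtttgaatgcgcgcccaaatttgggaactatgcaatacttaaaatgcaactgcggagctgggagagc
pum, strongest summit, chr3R:9237032-9237132: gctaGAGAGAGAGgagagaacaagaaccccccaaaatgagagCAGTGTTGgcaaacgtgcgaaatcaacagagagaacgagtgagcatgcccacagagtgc
pum, weaker summit, chr3R:9237870-9237970: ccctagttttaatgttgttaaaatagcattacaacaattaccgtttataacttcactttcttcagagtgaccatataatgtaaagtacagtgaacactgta
CAACACTG or its reverse complement stood at the strongest summit of all 6, which were printed in part because they hold it, and at none of their weaker summits. They are not typical in this, since 77 of the 480 members (16%) had the word at the strongest summit. At Df31 (3501.1 and 839.3), also among the strongest close members but not printed, neither window held a marked word. The PIG-T window, upstream of a subunit gene of the GPI transamidase, held DRE, the Motif 1 core and the word together. The windows of crp, which encodes a bHLH factor, and pkaap, an A kinase anchor protein gene, lie between these 2 genes.

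Within an interval the summits were unequal, and the spread of their distances was narrow. The signal, the authors' measure of enrichment for each peak on the pooled reads, had a median of 1401.1 at the strongest summit (interquartile range 793.1 to 2041.0) and 377.9 at the weakest (279.6 to 567.9). Single-summit intervals had a median of 388.7 (275.8 to 635.1), which is close to the members' weakest summits. The weakest summit reached a median of 33.6% of the strongest, with a range of 5.83% to 95.7%. Members had a median width of 665 bp, against 357 bp for single-summit intervals. These values helped choose the members and are given as a description, with no test. Members were mostly intervals of high signal: in the top 25% of intervals by signal 19.1% were members, against 4.33%, 0.148% and 0.0492% in the following classes of 25%.

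**Figure D1:**
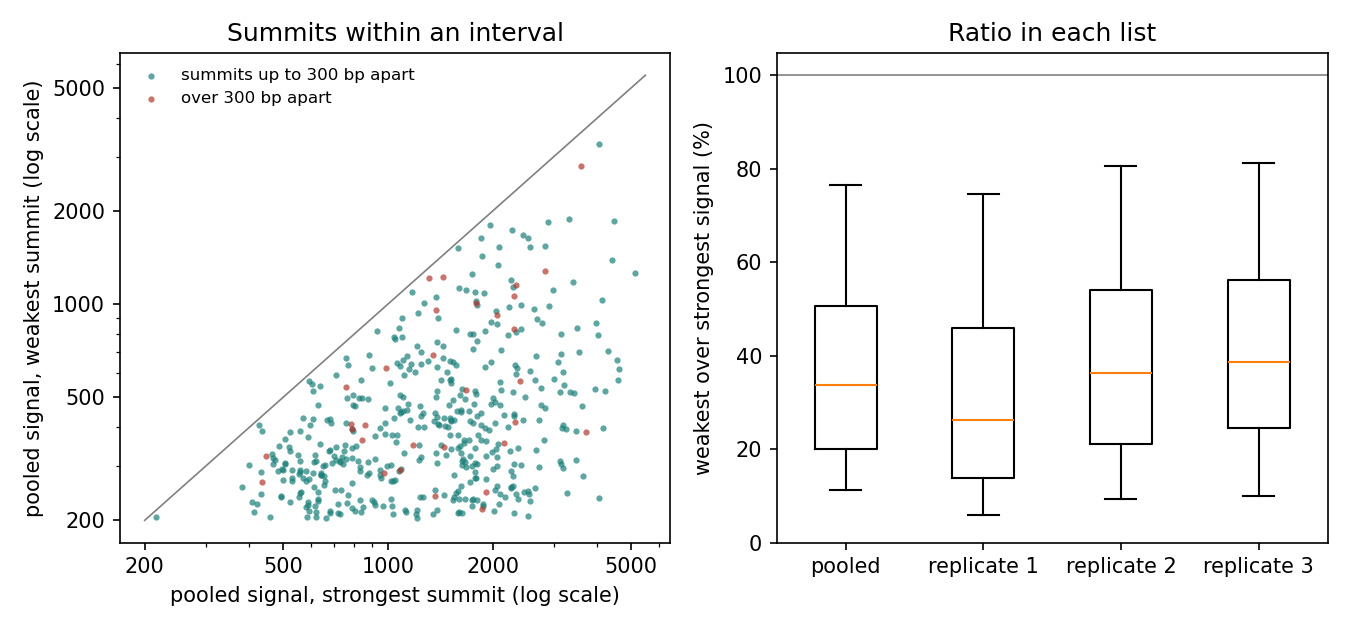
Left, pooled signal of the strongest summit (x axis, log scale) against that of the weakest (y axis, log scale) in each of the 480 intervals, with the line of equality; right, the weakest over the strongest signal in percent, pooled and in each replicate's own values where all summits of the interval were matched (line, median; box, quartiles; whiskers, 5th to 95th percentile). The points lie below the line over the whole range of signals, with medians of 33.6% pooled and 26.2%, 36.2% and 38.6% in replicates 1, 2 and 3.

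Adjacent summits of an interval were a median of 204 bp apart (interquartile range 201 to 213 bp, range 199 to 838 bp), and 274 of the 495 adjacent pairs (55.4%) were at most 205 bp apart. The distance of 199 bp was also the smallest between any 2 neighbouring summits in each of the 5 lists, within or between intervals. A replicate's own list is here the strongest summits of its relaxed list, as many as the IDR set holds. Median distances in the own lists of replicates 1, 2 and 3 were 203, 204 and 203 bp, although these lists held 297, 471 and 520 several-summit intervals. Most distances thus lay close to the smallest that the lists contain, and whether a weaker summit there marks a second bound site or the shoulder of the first was not tested. Only 32 pairs were over 300 bp apart, of which 14 were up to 600 bp and 18 more than 600 bp apart. They fell in 31 wide intervals, and the other 449 are called close here; the limit of 300 bp was chosen after the distances were seen. The weakest summit reached a median of 45.4% of the strongest in wide members and 33.1% in close ones, with strongest summits at 1443.7 and 1396.7.

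**Figure D2:**
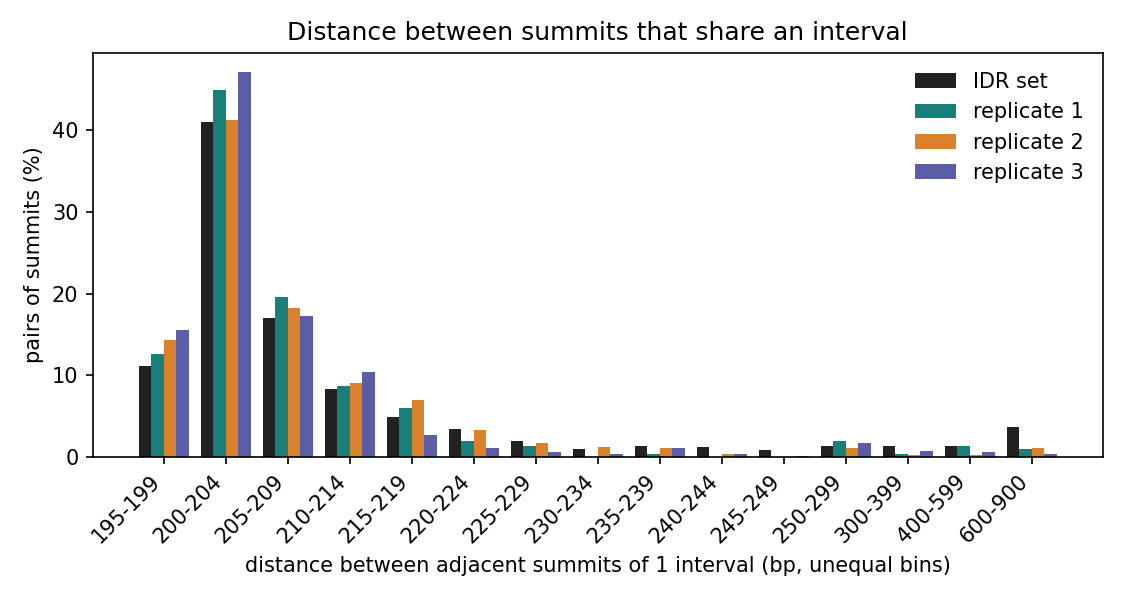
Distance between adjacent summits of the same interval (x axis, bp, in bins of unequal width) as a percentage of pairs (y axis), for the IDR set and for the own list of each replicate. In each list most pairs lie between 199 and 215 bp. In the IDR set a thin tail lies over 300 bp, with 14 pairs up to 600 bp and 18 beyond, the last falling in 1 wide bin.

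The pooled list before the IDR limit held 903 several-summit intervals, of which 480 kept more than 1 summit and are the members; the other 423 kept 1. The lowest signal in the IDR set was 203.9, and the members just inside it had weakest summits of 203.9 at CG1578, 204 at CG17328, 205.4 at CG7115, 205.4 at Gpat4 and 205.5 at prd1. Just outside lay eEF2, which encodes the ribosomal translocase, with a second summit of 203.8, Gcn5, a histone acetyltransferase gene, with 203.4, RapGAP1 and hth with 202.4 each and cindr with 202.3. The limit therefore cut through a continuous range: 39 members had a weakest summit within 10% above it, and 38 intervals outside had a second summit within 10% below it.

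Promoters held most of the members. At least 1 summit lay within 500 bp of an annotated TSS in 421 of 480 members (87.7%, 95% interval 84.4% to 90.5%), against 4325 of 7655 single-summit intervals (56.5%, 55.4% to 57.6%). All summits of the interval were at promoters in 392 members, some in 29 and none in 59. Introns held the strongest summit of 46 members (9.58%) and 26.7% of single summits, and intergenic sequence held 17 (3.54%) and 14.8%. When several-summit intervals were counted anew in each replicate's own list, the promoter share was 87.5%, 96.0% and 87.5% in replicates 1, 2 and 3, against 55.1%, 66.0% and 55.3% of single-summit intervals. The groups did not overlap, and the difference was 31.6 ± 1.41 percentage points (SD, n = 3), higher in 3 of 3 replicates; an exact two-sided sign-flip test gave p = 0.25, the smallest value that 3 replicates allow.

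Signal moved with this difference. In the top 25% of intervals by signal, 348 of 388 members (89.7%) and 1112 of 1645 single-summit intervals (67.6%) had a promoter summit, and in the next 25% the shares were 79.5% of 88 members and 58.1% of 1946 single-summit intervals. Members had the higher signal within those classes too, with medians of 1627.0 against 1177.0 and of 585.4 against 513.9. The part of signal in the remaining difference was not tested. The 423 intervals whose second summit fell outside the IDR set had a promoter summit in 73.3% (68.8% to 77.5%).

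**Figure D3:**
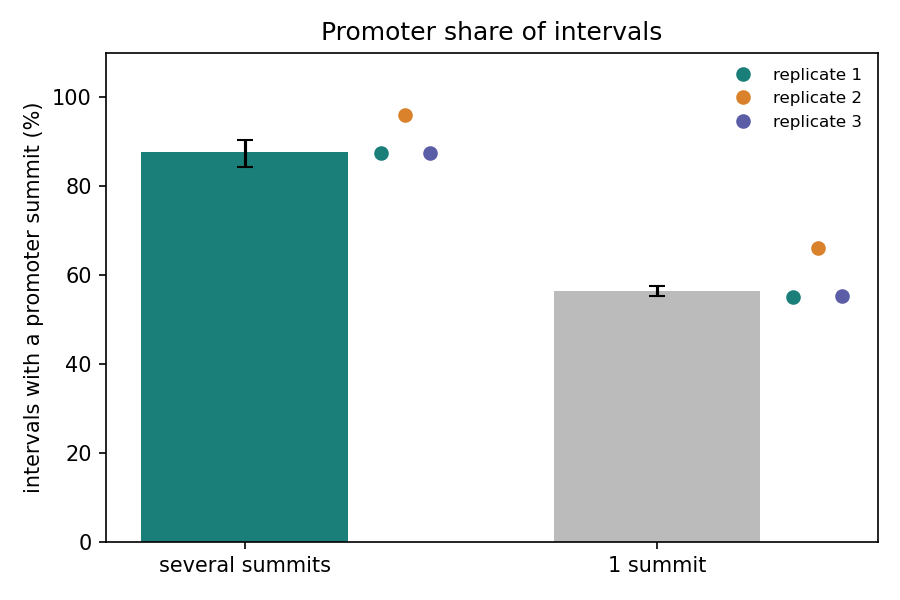
Percentage of intervals with a summit within 500 bp of a TSS (y axis) for intervals with several summits (left) and 1 summit (right); bars, IDR set with exact 95% binomial intervals; points, the own list of each replicate. Both the bars (87.7% and 56.5%) and the points of the 3 replicates lie apart.

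Many of these promoters served more than 1 gene. TSSs of at least 2 protein-coding genes lay within 500 bp of a summit in 229 of the 421 promoter members (54.4%, 49.5% to 59.2%), against 1559 of 4325 single-summit promoter intervals (36.0%, 34.6% to 37.5%). A member has more summits from which to reach a TSS; counted from the strongest summit alone, the share was 202 of 409 (49.4%). TSSs on both strands were within reach of 235 members (55.8%; 51.1% from the strongest summit alone), against 37.9% of single-summit intervals. The summits of 1 interval were nearest to TSSs of different genes in 144 of the 421 promoter members (34.2%), and in 33.6% ± 1.59 (SD, n = 3) in the replicates' own lists. In the other promoter members all promoter summits had the same nearest gene. Among wide members 12 of 29 had different nearest genes, against 132 of 392 close ones.

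At promoters the strongest summit sat just upstream of the TSS, as single summits did, and the weaker summit sat on either side of it. The median signed distance was −80 bp for the strongest summits of members and −86 bp for single summits. At 170 promoters with TSSs on 1 strand only, the weaker summit was downstream of the strongest in 83 (48.8%, 41.1% to 56.6%). Where it was downstream, the weaker summit had a median of 145 bp inside the transcribed side and the strongest −65 bp; where it was upstream, they had −303 bp and −85 bp. At 227 promoters with TSSs on both strands the weaker summit was upstream of the strongest in 155 (68.3%, 61.8% to 74.3%), which at divergent genes is the side of the opposite gene. The strands were counted from all summits, so an upstream weaker summit itself helps reach a TSS on the other strand. The side and the class are thus not independent, and the split from the strongest summit alone was not made.

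**Figure D4:**
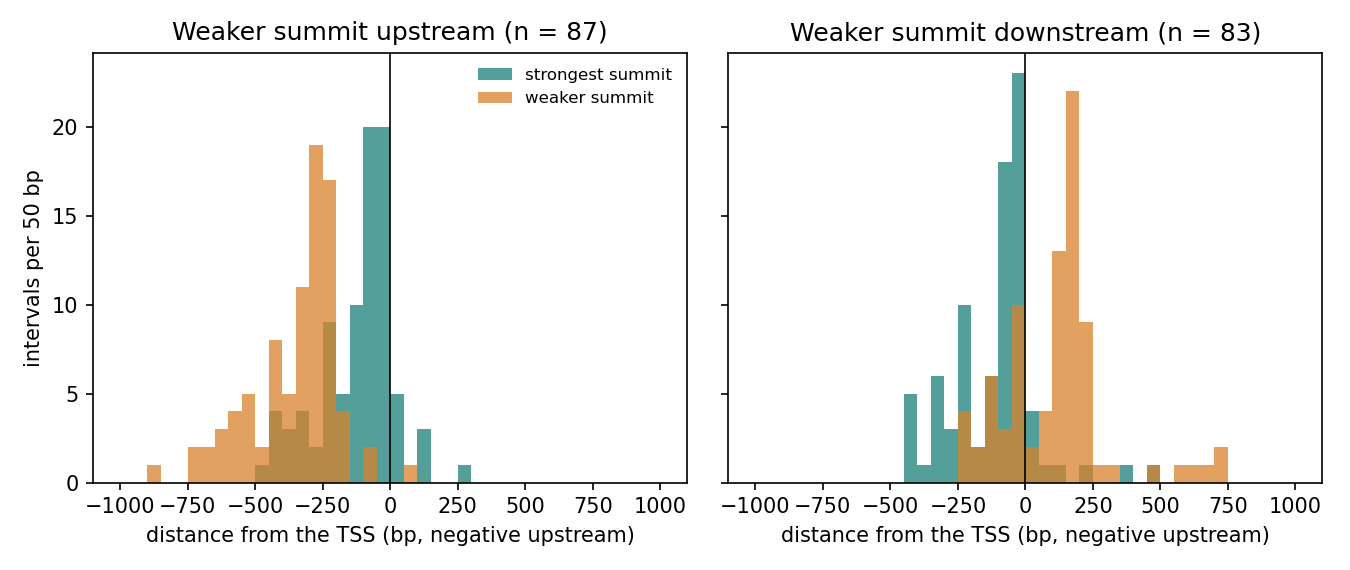
Distance of the strongest and the weaker summit from the TSS nearest to the strongest summit (x axis, bp, negative upstream) at 170 members with 2 summits and TSSs on 1 strand only, split by the side of the weaker summit; y axis, intervals per 50 bp. The strongest summits gather just upstream of the TSS in both panels, with medians of −85 bp and −65 bp, and the weaker summits have medians of −303 bp and 145 bp.

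Most pairs of summits were found again in each replicate's list. A member was called matched in a replicate where each of its summits had a different summit of the relaxed list within 100 bp. This held for 419, 422 and 446 of the 480 members in replicates 1, 2 and 3 (89.4% ± 3.08 of members, SD, n = 3), and for 346 members in all 3 (72.1%). Only 4 members were matched in none. The pooled list contains the reads of these replicates, so this is a description of agreement and no independent test. The order of the summits was kept: the pooled strongest summit was the stronger one in 416 of 419, 418 of 422 and 442 of 446 matched members. Of the 30 most even members, whose weakest summit exceeded 75% of the strongest, 12 were matched in all 3 replicates, against 121 of the 164 where it was under 25%.

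The side of the weaker summit was also the same across replicates. In members with 2 summits, a replicate summit lay within 100 bp of the weaker one in 93.1% ± 3.32, against 0.999% ± 0.327 at the mirror position on the other side of the strongest summit (SD, n = 3). The rule fixes part of this, since a pooled summit on both sides would have made 3 summits. The weaker summits were also called on the pooled reads of these replicates, so the match is a description and no independent test. The same search 204 bp to either side of single summits with strong signal gave 21.8% ± 7.67 of positions (SD, n = 3); the 3 replicates gave 13%, 26.1% and 26.4%.

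The 12 strongest members at protein-coding promoters had strongest summits from 4018.4 to 5149.3, and 10 of them served more than 1 protein-coding gene. The first lay at the TSSs of SRPK, an SR protein kinase gene, and dup, the fly Cdt1 that loads the replicative helicase (chr2R:15380317-15381527), with pooled signals of 5149.3 and 1264.3 at summits 260 bp apart. In replicates 1, 2 and 3 the strongest summit had 1954.2, 1833.1 and 1378.8 and the weaker 731.1, 705.1 and 619.8. The pooled signal that ranks the 2 summits contains these replicates, so their order there is a description only. The interval at tai, a coactivator of the ecdysone receptor, and CG9586 (chr2L:9166195-9167184) had 4631.9 and 616.6, and no weaker summit was matched in replicate 1. At mRpL23, a mitochondrial ribosomal protein gene, and CG9004 (chr3L:2373236-2374065) the signals were 4587.0 and 570.7.

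The pair of sds22, a regulatory subunit of protein phosphatase 1, and Brf, a subunit of the RNA polymerase III factor TFIIIB, shared an interval with 4568.5 and 658.1 (chr3R:17391055-17391943). Its summits lay 124 bp upstream and 105 bp downstream of the TSS of sds22. Between crp and pkaap (chr2L:16287445-16288482), whose sequences are shown above, the signals were 4475.5 and 1862.8. Replicates 1, 2 and 3 gave 1782.1, 1500 and 1234.7 at the summit nearer crp, and 546.6, 639.7 and 583.7 at the summit nearer pkaap. Each gene thus had its own nearest summit, and the crp side was the stronger in all 3 replicates. CG5611 and Mtl, a Rac-like GTPase gene, shared an interval with 4415.8 and 1392.5 (chr3R:27635882-27636696), again with a summit nearest to each gene.

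Groucho (gro), the corepressor of Notch and Wnt signalling, had its 2 summits 202 bp apart at its own promoter (chr3R:26041219-26042185), with 4297.2 and 704.9. Its strongest summit had 1780.5, 1462.8 and 1064.3 in replicates 1, 2 and 3, while the weaker had 20.9, 218.3 and 179.3. The weaker summit of gro was thus lowest by far in replicate 1, where the strongest summit was highest. The remaining members of the 12 were mRpL41 with CG8079 (4217.3 and 523.5), sti, the citron kinase of cytokinesis, with tral, an mRNA-binding protein gene (4167.5 and 397.7), and RpS27 with Nup37, a nuclear pore gene (4134.1 and 1033.3). CG5114 (chr3L:14982485-14983141) had the most unequal pair of all members, 4051.6 and 236.3, or 5.83%. AGO1, the Argonaute of microRNAs, shared an interval with mRpL53 and CG33155 (4018.4 and 794.6).

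The other very unequal pairs were at CkIalpha, a casein kinase gene (3266.8 and 245.6), Ube3a, a ubiquitin ligase gene, with CG7600 (3642.6 and 278.4), Sse, the separase (2526.2 and 206.2), and Ccm3 with CG6136 (3480.1 and 313.1). These had strongest summits above the members' median and weaker summits below it. No IDR summit lay below 203.9, so a very unequal pair needs a high strongest summit. Members of low signal can likewise only be fairly even. Of the 5 most equal pairs, 4 had a strongest summit below the members' median: CG17597 with ScpX, a sterol carrier gene, had 424.9 and 406.6 (95.7%), PIG-K, the catalytic subunit gene of the GPI transamidase, had 592.1 and 565.1, and PGRP-LE, a peptidoglycan sensor gene, had 216.2 and 205.7. At cnn, which encodes the scaffold protein centrosomin, the pair had 1589.9 and 1517.1. In replicate 3 only the summit of cnn that was weaker in the pool was matched, with 714.9, while replicate 1 gave 621.1 and 536.7 and replicate 2 gave 257.9 and 199. Another such pair lay within mew, an integrin alpha subunit gene, away from promoters (1175.0 and 1092.5).

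Of the 13 members with at least 3 summits, 12 were at promoters. SAK, the kinase that starts centriole duplication, and Cdk12, a kinase of the RNA polymerase II tail, shared an interval with 4 summits (chr3L:21515546-21517431). Its strongest summit, 70 bp upstream of SAK, had 2307.3 pooled and 871.7, 794.8 and 681 in replicates 1, 2 and 3; the weakest, near the TSS of Cdk12, had 833.8 pooled and 268.3, 274.3 and 75.3. All 4 summits were thus over the IDR limit with room to spare in the pool, and the largest gap between neighbours was 823 bp. The other interval with 4 summits was at BEAF-32, the gene of a boundary element factor that binds CGATA repeats (chr2R:14770013-14771846). It had 1912.0 at the strongest and 246.4 at the weakest summit.

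The members with 3 summits had strongest summits of 2827.6 at CG17574 and bic, 2334.7 at JIL-1, a histone H3 kinase gene, 2317.0 at CG32767 and 2253.0 at lin-52, a gene of the dREAM complex, with CG15771. Weaker ones were Trmt6, a tRNA methyltransferase subunit gene, with Ent2 (1507.7), RpS28b with l(1)G0320 (1366.3), Klp10A, a microtubule-depolymerising kinesin gene (1180.8), chn, a zinc finger gene of neural development (989.2), and NdufV3, a complex I subunit gene, with CG1737 (790.4). The pair of RpL32 and CG7943 had 1774.8 at its strongest summit but, alone among these 13, was matched in no replicate. Its summits lay 199 bp apart each, and replicate 3 alone matched the strongest, with 732. The 1 member with 3 summits away from promoters (chr3R:16221658-16222728) had 1791.5 and 1006.9, and was matched in 1 replicate.

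The widest gap was at pum, the translational repressor Pumilio, with 838 bp between summits of 1344.1 and 685.8 (chr3R:9236768-9238171). They lay 57 and 238 bp upstream of different annotated TSSs of the same gene. Replicates 1, 2 and 3 gave 479.8, 498.4 and 374.3 at the first and 307.5, 148 and 216.8 at the other. Pkc98E, a protein kinase C gene, and Slu7, a splicing factor gene, had summits 796 bp apart with 2304.0 and 1063.7. At the opposite end, the 199 bp gap was seen at AGO1 and mRpL53, at Syx7, a syntaxin gene (2654.7 and 255.1), and at Dph1, a gene of diphthamide synthesis (2562.0 and 231.3).

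Away from TSSs, the strongest member lay on X (chrX:12750769-12751730) within the long non-coding RNA gene lncRNA:Vinr, with summits of 4034.3 and 3288.3, 245 bp apart. Replicates 1, 2 and 3 gave 1959.5, 655.4 and 1396.5 at the strongest and 1432.6, 643.4 and 1211.2 at the weaker. Both summits were lowest in replicate 2, and in each replicate the order was kept. The next were within CG9663 (2839.1 and 1544.1), simj, a NuRD subunit gene (2217.9 and 792.1), Gug, the fly Atrophin (1985.2 and 475.9), and CHES-1-like, a forkhead gene (1975.1 and 877.3). In all 5 the strongest summit was lowest in replicate 2. Signals were not scaled between replicates, and replicate 2 also had the lowest medians over all intervals. At the strongest summits of all members its median was 399, against 589.3 and 405.7 in replicates 1 and 3. At single-summit intervals it was 95.4, against 185.6 and 128.9.

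In all, 650 of 13945 protein-coding genes (4.66%) had a TSS within 500 bp of a member's summit, against 5723 (41%) with any IDR summit; the members' genes were thus 11.4% of the bound genes. Lists are described by their counts, without a test. Of 93 genes listed as cytosolic ribosomal protein genes 84 were bound and 18 had a member (21.4% of those bound), among them RpS27, RpS3A and RpL26. The 18 include RpLP0-like, whose place in the ribosome was not checked. Both summits of its interval were nearest to a TSS of 14-3-3zeta. RpL26 had a nearly even pair of 1846.8 and 1632.5, and RpS3A, on chromosome 4, had 2119.2 and 708.5. Of 73 mitochondrial ribosomal protein genes 61 were bound and 10 had a member (16.4%), among them mRpL23, mRpL41, mRpL53 and mRpL51. The counts were 3 of 46 bound genes for RNA polymerase II, TAF and Mediator genes (MED6, MED24 and Taf4), 2 of 25 for the Polycomb and Trithorax groups (ph-p and Sfmbt), 2 of 22 for aminoacyl tRNA synthetases and 3 of 32 for the proteasome. Translation initiation factors had 4 of 29, secretory coat and V-ATPase genes 6 of 35, cell cycle and replication genes 4 of 38 (dup, geminin, E2f2 and Orc3) and insulator genes 2 of 18 (BEAF-32 and pzg).

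Genes of asymmetric neural stem cell division had members at 5 of 22 bound genes: stau and brat, which act in the basal fate determinant complex, the phosphatase 2A subunit genes mts and wdb, and flfl, a phosphatase 4 subunit gene. Zif itself and aPKC were bound, but by single-summit intervals. Signalling genes had members at 6 of 22: gro, csw, the insulin receptor InR, the Notch effector Su(H), its coactivator mam, and Apc of the Wnt pathway. No member lay at genes of neural stem cell identity (3 of 23 bound), at segmentation and Hox genes (5 of 28 bound) or at the marker genes of neurons (2 of 5), glia (1 of 3), muscle (1 of 5), epidermis (0 of 4) and hemocytes (0 of 4). With so few of these genes bound, a count of 0 leaves no comparison with the 11.4% of all bound genes.

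The chromosome arms held like shares of members, from 5.04% of intervals on 2L and 5.73% on X to 5.86% on 3R, 6.37% on 3L and 6.52% on 2R, with overlapping exact binomial intervals. Chromosome 4 had 2 members among 50 intervals.

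Sequence words were counted at the strongest and the weakest summits of members, which also differ in signal. Promoters held 85.2% of the strongest and 84.8% of the weakest summits, but 56.5% of single summits. The parts of signal and of promoter location in these shares were not tested for the named motifs. DRE, which is bound by DREF at housekeeping promoters, was within 50 bp of 7.5% of the strongest and 3.33% of the weakest summits. It was at 4.1% of single summits and 5.2% of windows at protein-coding promoters. The CGATA site of BEAF-32, which overlaps DRE, was at 30.6% and 16.9%, against 20.8% of single summits and 26% of protein-coding promoters. Each motif was searched on both strands. The E-box CAGCTG was at 9.17% and 7.5%, against 4.62% and 7.64%, and the Motif 1 core GGTCACAC at 1.67% and 3.13%, against 2.85% and 2.63%. In the replicates' own lists DRE was at 6.65% ± 2.71 of the strongest and 2.6% ± 0.216 of the weakest summits, against 4.28% ± 0.694 of single summits (SD, n = 3). The strongest summits of replicates 1, 2 and 3 had 5.39%, 9.77% and 4.81%, against 3.88%, 5.08% and 3.87% of single summits, higher in 3 of 3 replicates.

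CAACACTG was searched on both strands. It was chosen as the 8-base word most enriched at single summits over flanks 300 bp away, so the members had no part in its choice, but the search was made after the data were seen and is given with no test. It lay within 50 bp of the strongest summit in 77 of 480 members (16%, 12.9% to 19.6%), of the weakest in 9 (1.88%) and of 183 of 7655 single summits (2.39%). Midpoints between summits held it in 2.82%, flanks of single summits in 0.189% and windows at protein-coding promoters in 1.71%. In the replicates' own lists the shares were 17% ± 7.17 at the strongest and 2.6% ± 0.267 at the weakest summits, against 2.34% ± 0.25 at single summits (SD, n = 3).

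Signal moved with the share. In the top 10% of IDR summits by signal (1453.4 and more) the word was at 65 of 231 strongest summits of members (28.1%), at 0 of 14 weakest summits (exact 95% interval up to 23.2%) and at 85 of 612 single summits (13.9%). In the next 10% it was at 8.94% of the strongest and at 4 of 45 weakest summits (8.89%), against 4.04% of single summits, and in the 10% after that at 1.45% and 2.04%, against 1.62%. In the top 10% of each replicate's own list the shares were 17.3%, 28% and 16.9% at the strongest summits of members in replicates 1, 2 and 3, against 14.6%, 18.4% and 12.3% at single summits. The strongest summits had the higher share in each replicate, and the 2 sets of values overlap. Weakest summits in that class had it at 1 of 6, 6 of 63 and 6 of 29, or 15.6% ± 5.66, and the strongest at 20.7% ± 6.3 (SD, n = 3); in replicate 3 the weakest had the higher share. In that class the strongest and weakest summits thus differed by less than the spread between replicates. The word's centre was a median of 14.5 bp from the strongest summit. The weaker summit was on the 3′ side of the word in 39 of 77 members, so neither side was preferred. The word was at the strongest summit of SRPK with dup, of mRpL53, of BEAF-32, of geminin and of Orc3, among others.

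**Figure D5:**
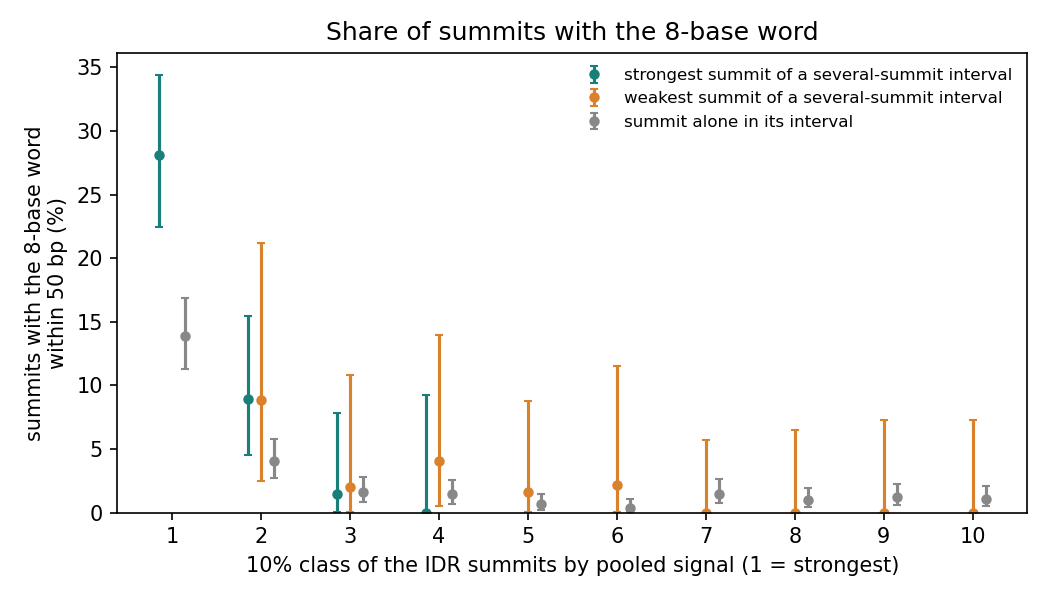
Percentage of summits with the 8-base word on either strand within 50 bp (y axis), by class of 10% of the IDR summits by pooled signal (x axis, 1 = strongest), for strongest and weakest summits of members and single summits, where a class had at least 20 summits; bars, exact 95% binomial intervals. The shares are highest at high signal, and in the first class it was 28.1% at the strongest summits of members and 13.9% at single summits.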

How the data were processed

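The peak lists of 3 replicates, a pooled relaxed list and the IDR set were used; per the labels they are on dm6. The deposited signal of each summit comes from the authors' peak calling; it was used as given, without scaling one list to another. The −log10 q value that the authors deposited was the same for every IDR summit and ranked nothing. Per the file headers, pooled and IDR lists came from replicates 2 and 3, but the pooled signal was 0.991 of the sum over all 3 (median), so no replicate was taken as independent of the members. Aligner, peak caller and IDR threshold: not given in the sources used here. No read counts were used; depth is unknown, and binomial intervals (Clopper-Pearson, 95%) cover counting error only. Nothing says whether replicates came from separate embryo collections, so the SD may be technical.

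Positions were made 1-based. Promoter summits lay within 500 bp of a TSS in Ensembl release 115, without transposable element genes. A replicate's own list was its strongest summits, as many as the IDR set holds. Motifs were searched within 50 bp of summits in the RefSeq dm6 sequence. Scripts were tested on simulated lists. Python 3.11.15, pandas 2.3.3, NumPy 2.4.6 and SciPy 1.17.1 were used. The members, gene lists, motifs and tests were chosen with earlier results of these data known. The text names the 12 strongest members at protein-coding promoters, all with at least 3 summits, the 5 strongest away from TSSs, the 3 widest and 3 closest, the 5 most equal and 5 most unequal, Zif, aPKC and members of the 19 lists. The list symbols calypso, Z4, Pzg, SA, CDC45L, h, phl and Dl had no match and were not counted; pzg was counted under its own spelling.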

Additional observations from a re-analysis of the deposited data

How the results depend on the processing

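The number of members depended most on the list: it was 769 with overlapping intervals joined, 903 in the pooled relaxed list, 223 in the stronger 50% of the summits and 297 in replicate 1. Values with a replicate left out, here and below, are means over the other 2 replicates' own lists or matches. The members were not chosen anew. The share with a promoter summit was 78.5% within 200 bp. It was 90.3% over the replicates' own lists, and 87.5% to 91.8% with a replicate left out. The difference in promoter share was 36.8 points within 200 bp, 27 within 1000 bp and 26 in the stronger 50%, and 31.1 to 32.4 with a replicate left out. The share with different nearest genes was 40.2% in the stronger 50% and 32.8% to 34.3% with a replicate left out. The median distance was 206 bp in the stronger 50%, 203.3 bp over the replicates' own lists and 203 to 203.5 bp with a replicate left out. Matching within 50 bp gave 80.6%, and leaving out a replicate 87.6% to 90.4%. The weakest over the strongest signal had a median of 41.6% in the stronger 50%, 28.9% over the replicates' own lists and 27.7% to 30.4% with a replicate left out. The settings for the number of members in the stronger 50%, for the signal ratio, for the genes with a member and for the 8-base word were chosen after seeing the data. The direction of the promoter difference was kept in each setting run. With narrower or wider windows the motif shares moved in 13 of 20 cases, and in the stronger 50% in 2 of 10. Members and single-summit intervals were paired within each replicate in the test of the promoter difference; no second group could be paired with this one. Depth is unknown, and the distance floor of 199 bp limits which pairs of sites could be told apart.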

Other observations

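Summits about as close as those of members also occurred in separate intervals. Of the neighbouring IDR summits up to 300 bp apart, 463 pairs shared an interval and 338 did not, although 281 of these 338 had intervals that overlapped by at least 1 bp. Those separate pairs were weaker and more even than members, with medians of 489.6 at the stronger and 268.8 at the weaker summit and a ratio of 61.1%, against 33.6% in members. No IDR summit lay below 203.9, so pairs of low signal can only be fairly even. The part of this limit in the ratio was not tested. Each replicate's relaxed list itself held a several-summit interval over 252, 232 and 261 of the 480 members (replicates 1, 2 and 3), fewer than the 419, 422 and 446 where all summits were matched.

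CAACACTG occurred 3858 times on the 6 chromosome arms used, and 293 of these occurrences (7.6%) were within 50 bp of an IDR summit. Around the 186 occurrences at single summits, T stood 4 bases before the word in 71% and 3 bases before it in 55.4%. T was also 5 bases before it in 45.2% and 2 bases before it in 45.7%, and C was 7 bases before it in 45.7%. At the 2 ends of the stretch counted, 12 bases before and after the word, T was at 33.9% and 29.6%. These shares were not tested.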
